A study of Mus musculus with 217 samples.

Results

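The immediate-early transcription factors Fos, Fosb, Jun, Junb, Egr1 and Atf3 were described across single cells of the mouse tibial growth plate. All 6 named genes were found among the 9739 genes of the deposited table. The growth plates were microdissected at postnatal day 7 from C57/BL mice of wild-type genotype, and all 217 columns carry the same labels. No animal, litter or plate is named, so the cells were treated as 1 sample, no test was possible, and every spread below is a spread over cells. Columns that correlated with each other at r above 0.95, which were 52 in 23 sets, were averaged within each set and 1 mixed column was dropped; what remained is called a profile.

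The relations were read in the profiles with an Acan level of at least 5 on the deposited log2 scale, called Acan profiles, of which 88 lay at or above their median number of detected genes and 88 below it. All other profiles numbered 11. Acan encodes aggrecan, the main proteoglycan of cartilage. The highest Acan level in those 11 was 2.91, and the lowest in the Acan profiles was 6.67. The median share of profiles in which a gene of the chondrocyte list was detected, over its 19 measured genes, was 9.09% in the 11 profiles of low Acan and 99.4% in the Acan profiles. For 9 osteoblast genes it was 54.5% in the 11 profiles and 15.3% in the Acan profiles. A gene was called detected where the value, taken back from the log2 scale, reached 1. The Acan profiles held 1326 to 4994 detected genes, with a median of 3463.5, and sequencing depth is unknown because the values had been scaled before deposit.

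Immediate-early genes are switched on within minutes of a growth factor, mechanical or stress signal, without new protein synthesis. Fos, Fosb, Jun and Junb encode subunits of the dimeric factor AP-1, in which a Fos protein pairs with a Jun protein through a leucine zipper. Atf3 encodes a stress-induced factor of the same bZIP superfamily, and Egr1 encodes a zinc finger factor that binds GC-rich sites. In cartilage, Fos and Jun family members are known as regulators of chondrocyte growth and hypertrophy, the enlargement of chondrocytes before bone replaces the matrix. The same genes are also widely known to be induced while tissue is taken apart into single cells.

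The promoter windows of the members are shown because these genes varied together in the profiles, as described below. Each window runs from 250 bases before to 50 bases after the RefSeq gene start in GRCm38.p6. Windows of 1 chromosome were left out beforehand. Among the rest, windows of 5 members were matched by symbol, and no window of Egr1 was used. The capitals mark matches on either strand to TGACGT, the core of the cyclic AMP response element (CRE), to TGACATCA, a variant of that element, to TGANTCA, the AP-1 element, and to GCGNGGGCG, an EGR element.
Fos, chr12:85473640-85473939, plus strand: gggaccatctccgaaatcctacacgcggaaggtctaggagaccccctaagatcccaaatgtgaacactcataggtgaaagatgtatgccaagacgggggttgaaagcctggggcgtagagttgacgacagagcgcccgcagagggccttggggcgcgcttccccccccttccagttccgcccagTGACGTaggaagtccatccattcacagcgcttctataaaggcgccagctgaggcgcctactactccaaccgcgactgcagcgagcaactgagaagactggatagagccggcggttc
Fosb, chr7:19309996-19310295, minus strand: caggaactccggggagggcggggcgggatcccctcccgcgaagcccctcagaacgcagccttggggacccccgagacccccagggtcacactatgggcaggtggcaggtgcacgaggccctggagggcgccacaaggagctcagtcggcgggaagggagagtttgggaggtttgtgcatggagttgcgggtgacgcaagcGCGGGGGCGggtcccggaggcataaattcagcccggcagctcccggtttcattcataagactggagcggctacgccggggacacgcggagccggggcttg
Jun, chr4:95052173-95052472, minus strand: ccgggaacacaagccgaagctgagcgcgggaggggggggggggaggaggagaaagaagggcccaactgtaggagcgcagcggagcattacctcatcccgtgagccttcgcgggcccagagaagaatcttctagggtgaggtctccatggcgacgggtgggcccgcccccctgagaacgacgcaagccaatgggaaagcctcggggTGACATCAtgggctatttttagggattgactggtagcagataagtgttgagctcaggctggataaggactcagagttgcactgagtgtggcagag
Atf3, chr1:191183284-191183583, minus strand: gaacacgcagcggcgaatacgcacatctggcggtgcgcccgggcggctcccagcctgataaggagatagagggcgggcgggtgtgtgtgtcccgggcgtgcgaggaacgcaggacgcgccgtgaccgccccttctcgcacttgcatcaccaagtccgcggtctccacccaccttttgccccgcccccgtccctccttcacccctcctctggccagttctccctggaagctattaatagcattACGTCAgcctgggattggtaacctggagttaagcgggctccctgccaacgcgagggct
The Fos window held TGACGT at 66 to 61 bases before the start and a TATA element (TATAAA) at 33 to 28 bases before it. The Atf3 window held the same CRE core on the other strand at 8 to 3 bases before the start, and the Jun window held TGACATCA at 45 to 38 bases before the start. The Fosb window held an EGR element at 50 to 42 bases before the start, where the letters were GCGGGGGCG. Among 32851 promoter windows of the same length, TGACGT was found in 7.51%, TGACATCA in 3.62%, GCGNGGGCG in 5.55% and TATAAA in 13.6%. TGANTCA, found in 7.81% of these 32851 windows, was in none of the 5 windows of members. Neither was the CArG box of serum response factor, found in 1.63%. Sites more than 250 bases before the start were not searched, so the promoters may hold these elements outside the windows. In the Junb window only TATAAA was found, at bases 1 to 6 after the annotated start. These matches describe letters and are not evidence of binding.

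Egr1 was the member listed in most Acan profiles. It was detected in all but 3 of them (98.3%, 95% exact Clopper-Pearson interval 95.1 to 99.6%), at a lowest level of 0, a median of 9.16 and a highest of 11.47. Its quartiles were 8.17 and 9.999, so that most profiles lay within a narrow band and a few stood far below it. Fosb was detected in 160 profiles (90.9%, interval 85.7 to 94.7%), from 0 through a median of 5.02 to 8.65. Jun was detected in all but 22 (87.5%, interval 81.7 to 91.998%), from 0 through a median of 3.61 to 7.10. Levels are not compared between genes, because the unit of abundance is not given in the sources used here.

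Fos had a wider spread. It was detected in 150 profiles (85.2%, interval 79.1 to 90.1%), from 0 through a median of 7.15 to 11.45, and its quartiles were 4.31 and 8.68. Atf3 was not detected in 55 profiles, 51 of which were at 0, and was detected in the rest (68.8%, interval 61.3 to 75.5%), with a median of 5.11 and a highest level of 9.75 over all Acan profiles. Where Atf3 was detected, its median was 6.69. Junb was detected in 28 profiles (15.9%, interval 10.8 to 22.2%), with a median of 3.12 where detected and a highest level of 5.33. Under a stricter limit of 10 in place of 1, the share detected was 52.8% for Jun and 7.39% for Junb. Exons of Junb overlap exons of Prdx2 on the opposite strand, and exons of Jun overlap those of the antisense RNA Junos. Whether counting used strand is not given in the sources used here, so reads of these neighbours cannot be told apart.

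The spread between profiles was larger than that between repeated columns. The repeats were picked by r above 0.95, so a low SD between them follows in part from that choice. Over the 23 sets of repeats, the SD between repeats was 0.18 for Egr1, 0.26 for Fos, 0.37 for Junb, 0.43 for Fosb and 0.47 for Atf3 on the log2 scale. It was highest for Jun, at 0.91. The SD over the Acan profiles was 2.04 for Egr1, 3.27 for Fos, 1.25 for Junb, 2.06 for Fosb, 3.35 for Atf3 and 1.81 for Jun. Repeats gave the same detection call for Fos, Egr1 and Junb in all 23 sets, for Fosb in 22, and for Jun and Atf3 in 20. If repeats share the cDNA of 1 cell, their SD leaves out error of capture and cDNA synthesis.

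**Figure D1:**
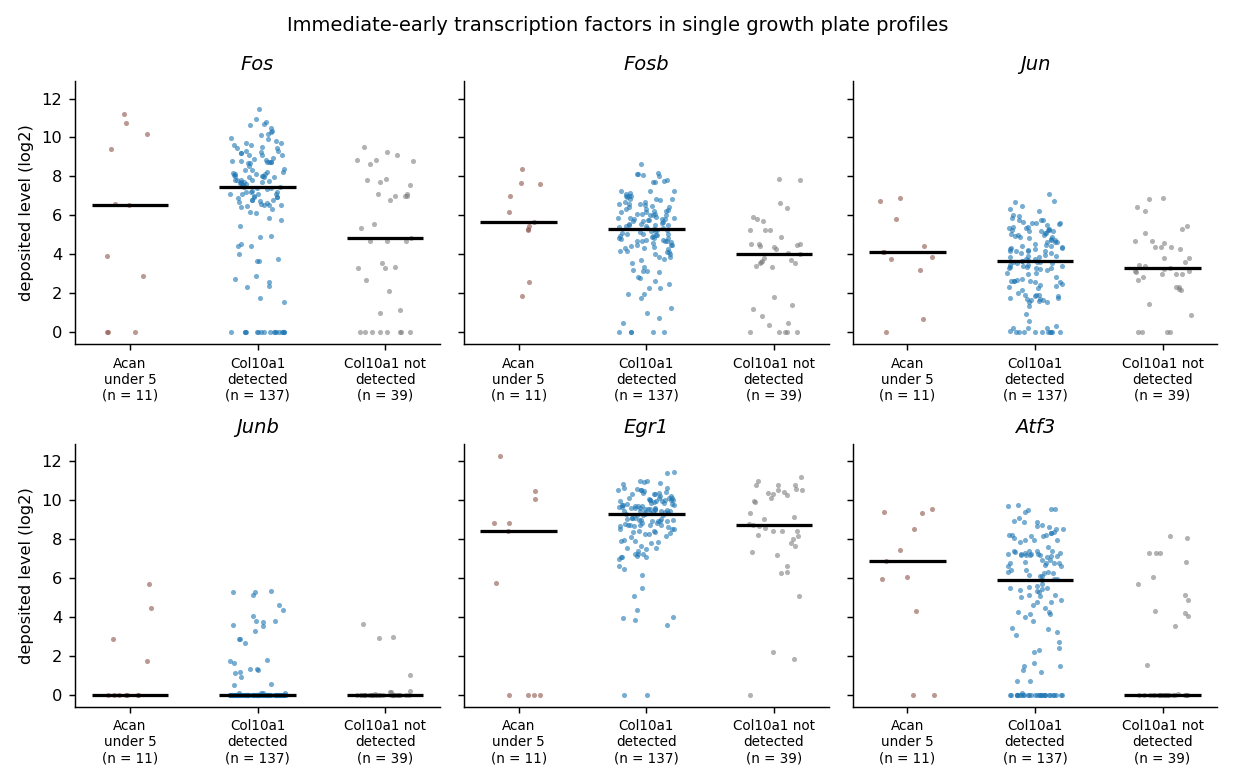
Deposited log2 level of each member (vertical axis) in each profile (points) for profiles with Acan under 5 (n = 11), Acan profiles with Col10a1 detected (77.8% of Acan profiles) and Acan profiles with Col10a1 not detected (n = 39), with the median as a bar. Atf3 has a median of 6.85, 5.88 and 0 in these 3 classes, while the median of Egr1 lies between 8.39 and 9.28 in all of them.

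Most chondrocyte profiles carried several members at once. At least 4 of the 6 members were detected in all but 30 Acan profiles (82.95%, interval 76.6 to 88.2%), exactly 5 in 74, and all 6 in 25. No profile lacked all of them, and 2 profiles had only 1. All members except Junb were common singly, from 68.8% for Atf3 to 98.3% for Egr1. The count of at least 4 members therefore does not by itself show that they occur together, and no other gene sets were counted. Of the 28 profiles with Junb, 27 also had Fos, 27 had Fosb, 27 had Jun, 27 had Atf3 and 28 had Egr1. Where Junb was not detected, Atf3 was found in 63.5%, Fos in 83.1%, Jun in 85.8%, Fosb in 89.9% and Egr1 in 97.97%. Of the 28 Junb profiles, 23 were among the 88 profiles with more genes detected. Atf3 was detected in 72.7% of the 150 profiles with Fos, against 12 of the 26 without it (46.2%), and of these 26 profiles 24 had Egr1 and 21 had Fosb.

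The number of members detected went with the number of genes detected. Of the 88 profiles at or above the median number of genes, 85 had at least 4 members (96.6%, interval 90.4 to 99.3%), against 61 of the 88 profiles below it (69.3%, interval 58.6 to 78.7%). All 6 members were detected in 21 of the 88 profiles with more genes and in 4 of the 88 with fewer. Spearman's rho with genes detected was 0.392 for Fos, 0.357 for Atf3, 0.335 for Fosb, 0.264 for Jun, 0.243 for Junb and 0.106 for Egr1. Of the 6 members, 3 therefore reached a rho of 0.3, whereas 7.62% of the 5380 genes detected in at least 20% of the Acan profiles did. The median rho of the members was 0.2999, and that of all these genes was 0.173. Of the members, 5 pass this filter of 20%, and Junb does not. The relations between members, to Col10a1, and of the members' mean to immediate-early and hypertrophic genes are therefore given also with this number held fixed. The genes most like each member and most other lists are given by plain rho.

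**Figure D2:**
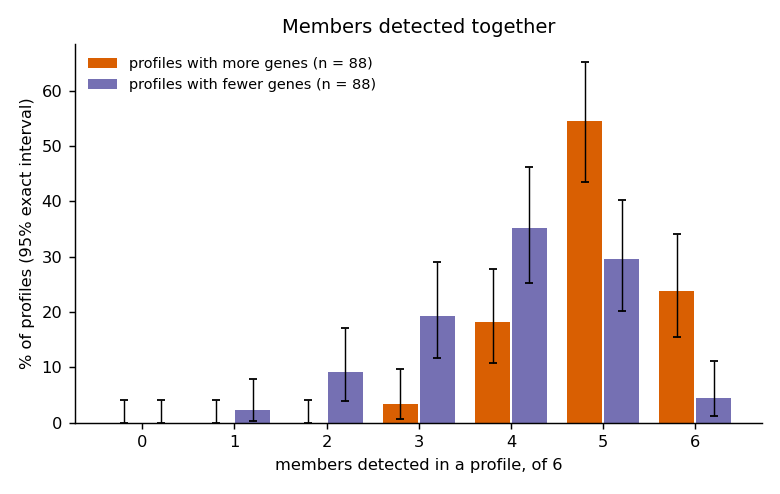
Share of profiles (vertical axis, %, with 95% exact intervals as bars) by the number of members detected of 6 (horizontal axis), for the 88 Acan profiles with more genes detected and the 88 with fewer. The profiles with more genes peak at 5 members (54.5%) and those with fewer at 4 (35.2%).

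The members varied together, and before genes detected were held fixed Fos had the highest median rho with the other members. All 15 pairs had a rho above 0 over the Acan profiles, with a median of 0.295, a lowest value of 0.142 and a highest of 0.479. The median over all pairs of the 5380 genes was 0.0300. A rho of at least 0.3 was reached by 6 of the 15 pairs, against 0.147% of all gene pairs, and among the 10 pairs without Junb by 5. These correlations are descriptions over cells of 1 sample that share their dissociation, scaling and number of genes detected.

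Fos reached 0.3 with each of the other 5 members, against 1.10% of 5379 genes. Its rho was 0.479 with Egr1, 0.404 with Fosb, 0.352 with Atf3, 0.312 with Jun and 0.304 with Junb. Egr1 stood in place 2 and Fosb in place 4 among the 5379 genes ranked by rho with Fos, and Fos stood in place 1 for Egr1. Fosb and Atf3 were correlated at 0.340, and 1.90% of genes reached 0.3 with Fosb and 0.911% with Atf3. The median rho with the other 5 members was 0.352 for Fos, 0.295 for Atf3, 0.284 for Jun and for Egr1, 0.269 for Fosb and 0.239 for Junb. Jun had a rho of 0.195 with Fosb, 0.178 with Junb, 0.284 with Egr1 and 0.295 with Atf3, where 0.762% of genes reached 0.3. Junb had 0.297 with Egr1, 0.239 with Atf3 and 0.219 with Fosb, where 0.0372% of genes did. The lowest pair was Egr1 and Atf3, at 0.142, with Atf3 in place 354 of 5379 for Egr1 and Egr1 in place 1139 for Atf3. Jun stood in place 618 for Fosb, and Fosb in place 318 for Jun. Likewise 0.0372% of genes, which is 2 genes, reached 0.3 with Egr1.

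With genes detected held fixed, all 15 pairs kept their sign and had lower values. The median partial rho was 0.235, against 0.00229 over all gene pairs. Fos and Egr1 were almost the same as before at 0.479, and Fos and Fosb were at 0.314. These were the 2 of 15 pairs that reached 0.3, against 0.0896% of all gene pairs. The median partial rho with the other 5 members was 0.267 for Egr1, 0.249 for Fosb and 0.247 for Fos, so Fos was no longer the highest. Among all gene pairs the share past 0.3 was 0.593% after upper-quartile scaling, beside 10 of the 15 pairs of members. It was 0.756% in the 88 profiles with more genes, where 9 of the 15 pairs reached 0.3, and 0.537% in the 88 with fewer, where 2 did. In the 88 with fewer genes, Fos had a rho of 0.462 with Egr1, 0.293 with Fosb, 0.150 with Atf3, 0.124 with Junb and 0.0834 with Jun. The lowest partial values were 0.111 for Egr1 and Atf3, 0.117 for Fosb and Jun, and 0.121 for Jun and Junb. Among profiles in which both genes were detected, the rho was 0.381 for Fos and Egr1 (27 profiles left out), 0.338 for Fos and Fosb (37 left out) and 0.353 for Jun and Atf3 (66 left out). It was 0.0460 for Egr1 and Atf3 (57 left out), the lowest of the pairs without Junb. Pairs with Junb rest on 27 or 28 profiles here and ran from -0.143 with Atf3 to 0.423 with Fos.

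**Figure D3:**
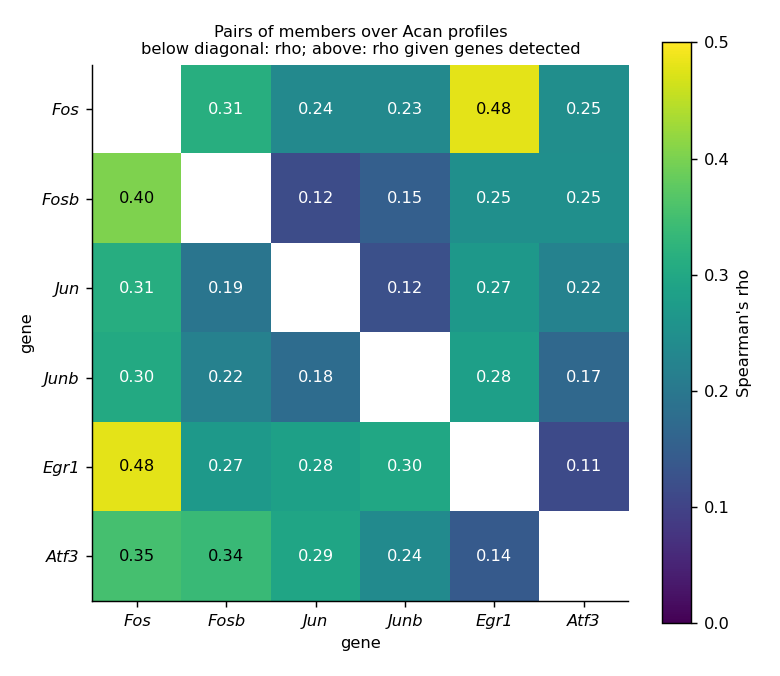
Spearman's rho of each pair of members over the Acan profiles (colour scale 0 to 0.5), with the plain value below the diagonal and the value given genes detected above it. Fos and Egr1 have the highest value on both sides (0.479), and Egr1 and Atf3 the lowest (0.142 and 0.111).

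The genes most like each member, with the other members left out of the ranking, differed. For Fos they were Id3 (rho 0.481), an inhibitor of bHLH factors, Ier2 (0.409), another immediate-early gene, Map1lc3b (0.400), which encodes the autophagy protein LC3B, Adk (0.382), adenosine kinase, and Dusp1 (0.378), a phosphatase that switches off MAP kinases. For Egr1 they were Ier2 (0.349), its relative Egr2 (0.281), Lsm7 (0.281), Ccnt2 (0.278) and Id3 (0.267). For Junb they were Ier2 (0.324), 4930503L19Rik (0.296), Nfkbia (0.295), an inhibitor of NF-kappa-B, H2-D1 (0.294) and Tsnax (0.292). Ier2 thus stood among the 5 most alike for these 3 members. For Fosb they were Hist1h1c (0.439), a linker histone, Map1lc3b (0.431), Gadd45b (0.426), a stress-induced gene, Snai2 (0.423), a zinc finger repressor, and Eef2 (0.405), a translation factor.

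For Jun, 3 of the 5 most alike were ribosomal protein genes, namely Rpl36 (0.384), Rplp2 (0.371) and Rps10 (0.364). The other two were Rps15a-ps4 (0.369) and Pebp1 (0.364). Rps15a-ps4 is named as a pseudogene of a ribosomal protein gene, so its reads may belong to a near-identical copy. For Atf3 the closest gene was Col10a1 (0.449), followed by Ibsp (0.408), Unc5b (0.391), a netrin receptor, Gpsm2 (0.386) and Ccdc80 (0.382). Col10a1 encodes collagen X, the collagen of hypertrophic cartilage, and Ibsp encodes an acidic protein of mineralizing matrix.

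The relation to Col10a1 differed among the members. Over the Acan profiles its rho was 0.449 with Atf3, 0.341 with Fos and 0.333 with Fosb, so that 3 of the 6 members reached 0.3, against 3.20% of 5379 genes. It was 0.197 with Junb, 0.0864 with Egr1 and 0.0807 with Jun. Acan itself reached 0.3 with none of the 6 members, against 1.95% of genes, and its highest value was 0.269 with Fosb. For Col10a1, the median of the members was 0.265 and that of all genes was 0.0584. With genes detected held fixed, Atf3 kept 0.376 and was the 1 member past 0.3, against 1.39% of all genes. Fosb had 0.249, Fos 0.243, Junb 0.127, Egr1 0.0545 and Jun -0.00758 in that setting.

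In profiles with Col10a1 detected, Atf3 ranged from 0 through a median of 5.88 to 9.75, and in the 39 without it from 0 through a median of 0 to 8.14. The classes overlapped in range. Atf3 was detected in all but 31 profiles with Col10a1 (77.4%, interval 69.4 to 84.1%), against 15 of 39 without it (38.5%, interval 23.4 to 55.4%). Its mean was 4.90 ± 3.21 (SD over cells) with Col10a1 and 2.16 ± 2.99 (n = 39) without, a difference of 2.74 on the log2 scale. Fos had a median of 7.43 with Col10a1 (lowest 0, highest 11.45) and 4.86 without (0 to 9.53), and its means differed by 1.82. Fosb had medians of 5.28 (0 to 8.65) with Col10a1 and 3.998 (0 to 7.85) without, and its means differed by 1.45. These 3 members had a difference of at least 1, against 9.89% of 5378 genes.

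Egr1, Jun and Junb showed smaller differences between the same classes. Egr1 had a median of 9.28 with Col10a1 and 8.71 without, and was detected in 98.5% and 97.4%. Jun had medians of 3.67 and 3.29 in profiles with and without Col10a1, and was detected in 87.6% and 87.2% of them. Junb was detected in 24 profiles with Col10a1 (17.5%) and in 4 of 39 without (10.3%). Differences in the mean were 0.40 for Egr1, 0.29 for Junb and 0.07 for Jun, beside a median of 0.25 over all genes. Relative to that median the difference was 2.49 for Atf3, 1.57 for Fos, 1.20 for Fosb, 0.15 for Egr1, 0.04 for Junb and -0.18 for Jun. After upper-quartile scaling the median of all genes became 0.39, and the differences relative to it were 2.45, 1.67, 1.29, 0.31, -0.05 and -0.09 in the same order of genes, so that Junb changed sign.

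The profiles with Col10a1 also held more genes, with a median of 3542 against 3025 without it. The comparison was therefore repeated within the profiles of more and of fewer genes. Among the 88 with fewer genes, Atf3 was detected in 38 of 59 with Col10a1 (64.4%) and in 8 of 29 without (27.6%), and its means differed by 2.54. Fosb differed by 1.13 there and Fos by 0.83, while Junb, Egr1 and Jun were lower with Col10a1, by differences of -0.14, -0.18 and -0.53. A difference of at least 1 was thus seen in 2 members, against 6.14% of all genes. Among the 88 with more genes, where only 10 profiles lacked Col10a1, the differences were 1.88 for Fos, 1.45 for Atf3 and 1.29 for Fosb. These 3 members passed 1 there, against 15.4% of all genes, and Egr1, Junb and Jun differed by 0.85, 0.58 and 0.41.

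Heat shock genes, whose products refold damaged proteins, had similar summed levels in both classes. Their summed log2 level over 19 genes ran from 29.39 to 102.004 (median 74.23) in profiles with Col10a1 and from 54.32 to 90.15 (median 74.74) without it. The summed level of the 9 measured osteoblast genes had a median of 10.49 with Col10a1 (0 to 67.03) and 6.73 without (0 to 24.65). Of these genes, Dmp1 and Ifitm5 were detected in no profile without Col10a1, but they were found in only 6.82% and 15.3% of all Acan profiles. The 2 measured endothelial genes had a median sum of 0 in both classes, and the 7 macrophage and osteoclast genes had medians of 6.78 and 6.20 with and without Col10a1. Their part in the differences was not tested.

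Along the markers of maturation, medians of Fos, Fosb, Atf3, Jun and Egr1 were lowest in profiles with none of Col10a1, Ihh and Ibsp. They were highest in profiles with Ibsp, and the share with Junb detected had the same ends. Values over all genes are not given for these classes. Ihh encodes the hedgehog ligand of prehypertrophic chondrocytes. The 4 classes were profiles with none of the 3 (n = 29), with Col10a1 but neither Ihh nor Ibsp (n = 69), with Ihh but not Ibsp (n = 41), and with Ibsp (n = 37). The median of Fos in these classes was 4.68, 6.78, 7.19 and 9.21. That of Fosb was 3.81, 4.78, 5.22 and 6.05, and that of Atf3 was 0, 4.79, 5.38 and 7.24. The quartile ranges of neighbouring classes overlapped for Fos, for Fosb and for Atf3, with Fos at 6.54 to 8.01 in the Ihh class and at 7.39 to 9.94 in the Ibsp class. Those of Atf3 were 0 to 4.04, 0 to 7.18, 0 to 6.78 and 6.09 to 8.32.

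Detection of Atf3 was 27.6% (interval 12.7 to 47.2%), 71.01% (58.8 to 81.3%), 68.3% (51.9 to 81.9%) and 97.3% (85.8 to 99.9%) in the same order. The share was lowest in the first class, nearly equal in the 2 middle ones and highest in the last, over cells of 1 sample. Junb was detected in 6.90%, 10.1%, 12.195% and 37.8%, with the last interval from 22.5 to 55.2%. Jun had medians of 3.13, 3.36, 3.54 and 4.55, with quartiles of 3.46 and 5.52 in the Ibsp class. Egr1 had medians of 8.59, 8.97, 9.38 and 9.42, and its quartile ranges overlapped across all 4 classes. The median number of genes detected was 2954, 3347, 3523 and 3682 in these classes, and its part in the differences was not tested.

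**Figure D4:**
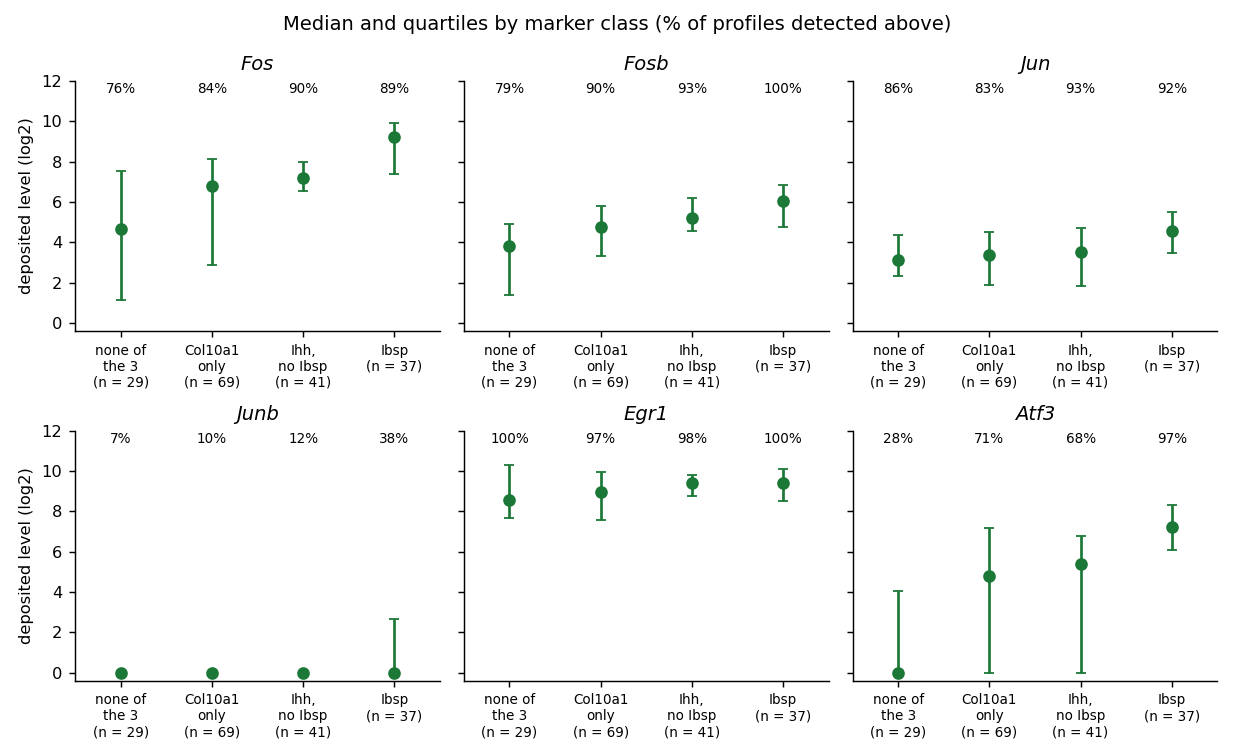
Median (point) and quartiles (bars) of the deposited log2 level of each member in 4 marker classes of Acan profiles, ordered from none of the 3 markers to Ibsp detected, with the share of profiles detected above each point. Atf3 has medians of 0, 4.79, 5.38 and 7.24, while Egr1 stays between 8.59 and 9.42.

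The 11 profiles of low Acan showed another arrangement of the members. Egr1 was detected in 7 of 11 (63.6%, interval 30.8 to 89.1%), against 98.3% of the Acan profiles, and its mean was 5.87 ± 4.91 (SD over cells, n = 11) against 8.71 ± 2.04 in the Acan profiles. The difference was -2.85, and -2.41 relative to the median of all genes; 30.4% of all genes were lower by at least 1. Atf3 was detected in 9 of 11 (81.8%, interval 48.2 to 97.7%), against 68.8% of the Acan profiles, and its mean was higher by 1.84, as were 12.1% of all genes by at least 1. Fosb was detected in all 11, with a lowest level of 1.83, a median of 5.68 and a highest of 8.36, and its mean was higher by 0.99. Junb was detected in 4 of 11 and Fos in 8 of 11, where Fos reached 11.20 in 1 profile and was at 0 in 3. In the 3 profiles with Fos at 0, Jun was at 0, 0.65 and 3.75, while Fosb was at 1.83, 5.26 and 6.99. The median of all genes was lower by 0.43 in these 11 profiles, their median number of genes detected was 2757, and the summed level of heat shock genes had a median of 89.54 against 74.28. The part of these in the differences was not tested.

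Some other immediate-early genes followed the mean of the members. The mean z score of the 6 members was correlated with the 5375 other genes detected in at least 20% of the Acan profiles, of which 110 (2.05%) had a rho of at least 0.3 and 10 (0.186%) had one of -0.3 or lower. Among the 10 highest were Ier2 (0.4795), Id3 (0.465), Map1lc3b (0.450), Dusp1 (0.444), Unc5b (0.425), Nr4a1 (0.419), an orphan nuclear receptor and immediate-early gene, Wnt4 (0.400), a WNT ligand, Wscd2 (0.394) and Col10a1 (0.391). The 5 lowest were Ptges3 (-0.401), a co-chaperone of HSP90, AI597468 (-0.368), Sub1 (-0.348), a transcription coactivator, Golt1b (-0.342) and Foxn2 (-0.339), a forkhead factor.

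Of 43 listed other immediate-early genes, 39 were measured and 35 passed the 20% filter. Their median rho was 0.212, against 0.0853 over all genes, and 11 of the 35 reached 0.3, against 2.05% of all genes. Besides Ier2, Id3, Dusp1 and Nr4a1 these were Zfp36, Gadd45g, Gadd45b, Klf2, Id1, Egr2 and Nfkbia. Id1 and Id3 are also known as targets of BMP signalling. Some genes of the list went the other way: Hbegf, a growth factor of the EGF family, had -0.149, Ptgs2, the inducible prostaglandin synthase, -0.124, and Btg1 -0.110. With genes detected held fixed, the median of the list was 0.144, against 0.00387 over all genes. Ier2 (0.386), Id3 (0.357) and Nr4a1 (0.314) then reached 0.3, and so did Map1lc3b, Unc5b and Wnt4, among 7 of all 5375 genes (0.130%). Single members went with fewer of the 35 genes by plain rho. With Fos 5 reached 0.3 and with Fosb 4, against 1.10% and 1.90% of all genes. With Junb and with Egr1 1 did (0.0372% of all genes for each), and with Jun (0.762%) and Atf3 (0.911%) 0 did.

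Lists of ERK feedback, of kinases and factors upstream, and of cytoskeletal SRF (serum response factor) targets had medians near the 0.0853 of all genes. The 7 genes of ERK feedback had a median rho of 0.0590, with Dusp6 highest at 0.121 and Spry2, an inhibitor of receptor tyrosine kinase signalling, lowest at -0.203. Kinases and factors upstream had a median of 0.0768 over 21 genes, with Srf (0.292), Mapk3 (0.290) and Map3k5 (0.230) the highest and Nras (-0.175) and Map2k3 (-0.0483) among the lowest. Cytoskeletal targets of serum response factor had 0.0881 over 15 genes, led by Cyr61 (0.241). In these 3 lists no gene reached 0.3, beside 2.05% of all 5375 genes, a share at which lists of this size may hold none. Other AP-1 and ATF subunits had a median of 0.160 over 7 genes, none of them past 0.3, with Fosl2 (0.226), Atf4 (0.192) and Maf (0.164) the highest and Fosl1 (-0.0213) the lowest. Heat shock genes had 0.0547 over 15 genes and 1 past 0.3, namely Hspa5 (0.369), the chaperone of the endoplasmic reticulum. With genes detected held fixed, Srf had 0.235, Mapk3 0.0802, Map3k5 0.194 and Hspa5 0.235. The list of kinases and factors upstream then had a median of -0.00706, against 0.00387 over all genes.

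Reported AP-1 targets did not go together with the members as a list. Their median was -0.0587 over 10 genes. Of the 10, Ibsp (0.369) was the 1 gene past 0.3, against 2.05% of all genes, and Hmox1 (0.231) and Mmp14 (0.218) followed. Plaur (-0.224), Il11 (-0.210) and Timp1 (-0.182) were the lowest.

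Among zone lists, prehypertrophic and hypertrophic genes had a median rho of 0.273 with the members' mean over 11 genes, against 0.0853 over all genes. All 11 were above 0, as were most of all genes. Of the 11, 5 were past 0.3, against 2.05% of all genes. The 5 were Col10a1 (0.391), Ibsp (0.369), Mef2c (0.366), Ihh (0.321) and Cdkn1a (0.317), and the lowest were Spp1 (0.196), Panx3 (0.199) and Bmp6 (0.219). By member, the median over the 11 genes was 0.274 for Fosb, 0.264 for Atf3, 0.231 for Fos, 0.154 for Junb, 0.142 for Jun and 0.0989 for Egr1. With genes detected held fixed the list had a median of 0.201 with the mean, and none was past 0.3. Resting genes had a median of 0.156 over 6 genes, with Cd200 (0.372), Foxa2 (0.263) and Clu (0.172) above Nt5e (0.140), Sfrp5 (-0.143) and Ucma (-0.178). Chondrocyte genes had -0.0692 over 17 genes, where Comp (0.370), Matn1 (0.237) and Chad (0.235) were the highest and Epyc (-0.263), Hapln1 (-0.209) and Lect1 (-0.186) the lowest. The 4 osteoblast genes, of which Ibsp and Sp7 are also in the hypertrophic list, had 0.243, and the 4 cell cycle genes had 0.0815.

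**Figure D5:**
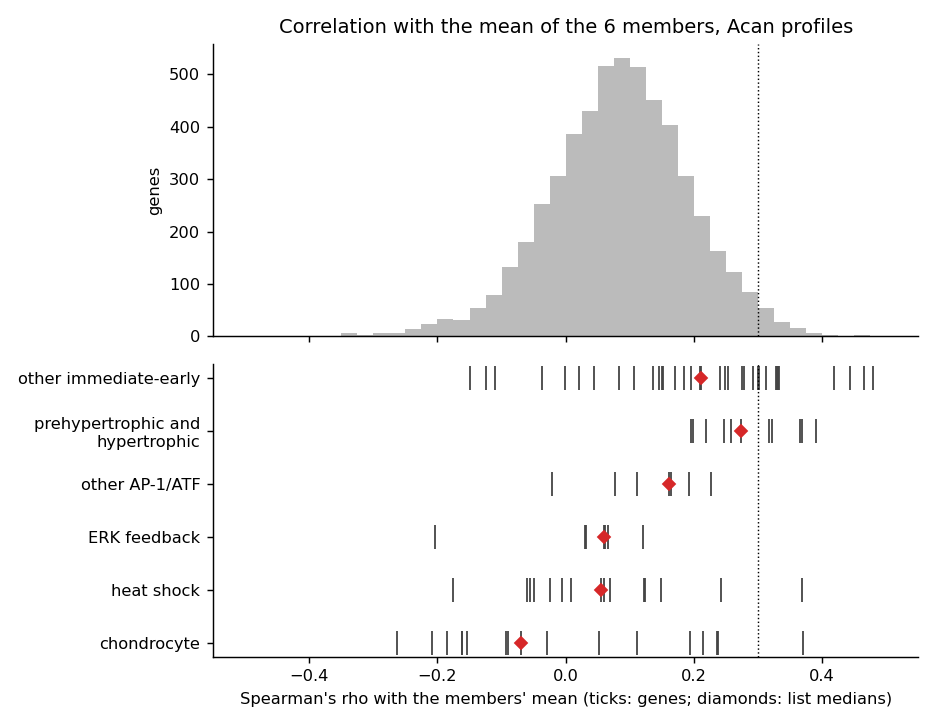
Top, number of genes (vertical axis) by Spearman's rho with the mean of the 6 members over Acan profiles (horizontal axis) for 5375 genes. Below, the same rho for single genes (ticks) and list medians (diamonds), with the dotted line at 0.3: the prehypertrophic and hypertrophic list has the highest median of those drawn (0.273) and the chondrocyte list the lowest (-0.0692).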

How the data were processed

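The table holds 1 column per cell. Per the labels' protocols, polyA RNA was turned into cDNA with SMARTer chemistry and libraries were made with Nextera XT. TopHat and mm10 are named in the submitters' processing notes, and the sources used here name no quantifier, annotation or unit. What the authors deposited fits a log2 scale with a pseudocount of 1, inferred from the values, since back-transformed totals run from 394406 to 616257 per column. The values were therefore scaled before deposit, and 62.3% of them are 0.

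Of the 217 columns, 52 fell into 23 sets with r above 0.95 and were averaged. Detection was a back-transformed value of at least 1. Correlations are Spearman's rho over profiles, also given genes detected through residuals of ranks, and are descriptions without p. Exact intervals cover counting error only. A relation was counted at a rho of 0.3 and a class difference at 1 (log2), over genes detected in at least 20% of the Acan profiles. Promoter sequences come from RefSeq. The members and lists, including the marker classes, were chosen with earlier results of these data known. The genes named were the members, Acan, Col10a1, the 5 genes most like each member, the 10 highest and 5 lowest with the members' mean and up to 3 at each end of a list. Names outside this rule, such as Dmp1, Ifitm5 and those given to complete a count, were chosen after their values were seen. Of the genes this rule names, 2 are not reported here. Lists of blood, muscle and perichondrial genes had at most 2 genes past the filter: blood had 0, and muscle and perichondrial genes had a median rho of 0.0848. Alternatives covered detection, repeats, the mixed column, the Acan limit, profiles with few genes, scaling, pseudocount and correlation measure. The steps were tested on simulated data. The tools were NumPy 2.4.6, SciPy 1.17.1, pandas 2.3.3, matplotlib 3.10.9 and NetworkX 3.6.1 under Python 3.11.15.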

Additional observations from a re-analysis of the deposited data

How the results depend on the processing

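Over the settings tried, the median rho of the 15 pairs ran from 0.163 to 0.351 and that of the members with Col10a1 from 0.0778 to 0.294. Values of rho are called close to the main one when within 0.1, and counts when within 1.5 times. Given genes detected, 2 pairs reached 0.3 and 7 genes reached 0.3 with the members' mean. After upper-quartile scaling these counts were 10 pairs (beside 0.593% of all gene pairs) and 492 genes, and the median rho with genes detected was 0.404. With a pseudocount of 0.1 and Pearson's r, 3 pairs reached 0.3, but no share of all gene pairs is given for that setting. With detection at a back-transformed value of 10, 58.5% of the Acan profiles had at least 4 members. In the 88 profiles with fewer genes, a split added after seeing the data, the median was 0.163 for pairs and 0.0778 with Col10a1, and 2 pairs reached 0.3 (0.537% of all gene pairs). Fosb and Jun (-0.0104) and Jun and Junb (-0.0115) changed sign there, as did Col10a1 with Jun (-0.105), Junb (-0.0327) and Egr1 (-0.0300). Col10a1 with Jun was also below 0 given genes detected (-0.00758). The cause was not tested. The rho of Atf3 with Col10a1 ran from 0.354 to 0.460. No paired analysis was possible because all cells form 1 group, and depth per cell is unknown.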
